A study of Mus musculus with 12 samples.

Results

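The transcription factors that set up and mature squamous epithelium were followed in mouse tongue tumours, as 10 genes: Trp63, Sox2, Klf4, Klf5, Grhl3, Ovol1, Tfap2a, Pitx1, Elf3 and Ehf. They were chosen by name, with earlier results of these data known. All 17 array probes annotated to them were taken, among 25697 probes in all. Of these, 16 probes of 9 genes lay above background and were tested, with 10787 genes tested in the series. The single Ehf probe was below background on every array.

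RNA was hybridised to Illumina bead arrays of 1 colour, from 7 tongue tumours of B6 mice that had received 200 µg/mL of 4NQO, a quinoline carcinogen that forms DNA adducts, with 500 µg/mL of arecoline, an areca nut alkaloid, and from 5 normal tongues of B6 mice, where control mice received DMSO; the label of a normal piece does not itself name the treatment. Both groups were treated for 8 weeks and rested for 20 weeks, and the age given is 8 months. The labels do not say that each piece came from its own animal, so the tests measure differences against the spread between pieces, which may in part be technical. The comparison asks which genes differ between carcinogen-induced tongue tumours and normal tongue.

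Squamous epithelium renews from a basal layer whose cells leave the basement membrane, stop dividing and cornify. p63, the product of Trp63, maintains the basal cell state, and SOX2 marks progenitors of the oral and oesophageal lining. AP-2 alpha (Tfap2a) and PITX1 act in early ectoderm and oral epithelium, while KLF4, GRHL3 and OVOL1 drive exit from the basal layer and barrier formation. KLF5 acts in proliferating epithelium, and ELF3 and EHF are epithelium-specific ETS factors.

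Pieces with salivary gland RNA stood apart. The gland score, the mean log2 signal of 6 measured marker genes, was 10.16 in tumour 2 and 13.49 in normal tongue 1, against 6.45 to 6.89 in the other tumours and 6.90 to 7.92 in the other normal tongues. Results were therefore also computed without both pieces.

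The factors split into those that rose in tumours and those whose change did not pass the test. In tissue pieces, a larger share of epithelial cells and more RNA of a factor per cell cannot be told apart. Elf3, Trp63, Tfap2a and Pitx1 rose, by 4.17-fold, 2.58-fold, 2.17-fold and 1.88-fold. Klf4, Klf5, Grhl3, Ovol1 and Sox2 did not pass the test, with log2 changes of 0.01 to 0.39. Hence 4 of 9 measured factors were higher and 0 were lower by limma, at a threshold of 0.05 on the adjusted p. Over all genes tested the same call was made for 32.5% as higher and 23.6% as lower, so a share of 4 in 9 is not far from the background. The median log2 change was 0.39 over the 9 factors and 0.07 over all genes. The 4 factors that rose were also those whose groups did not overlap, and the tumours lay above every normal tongue for 21% of all genes.

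**Figure D1:**
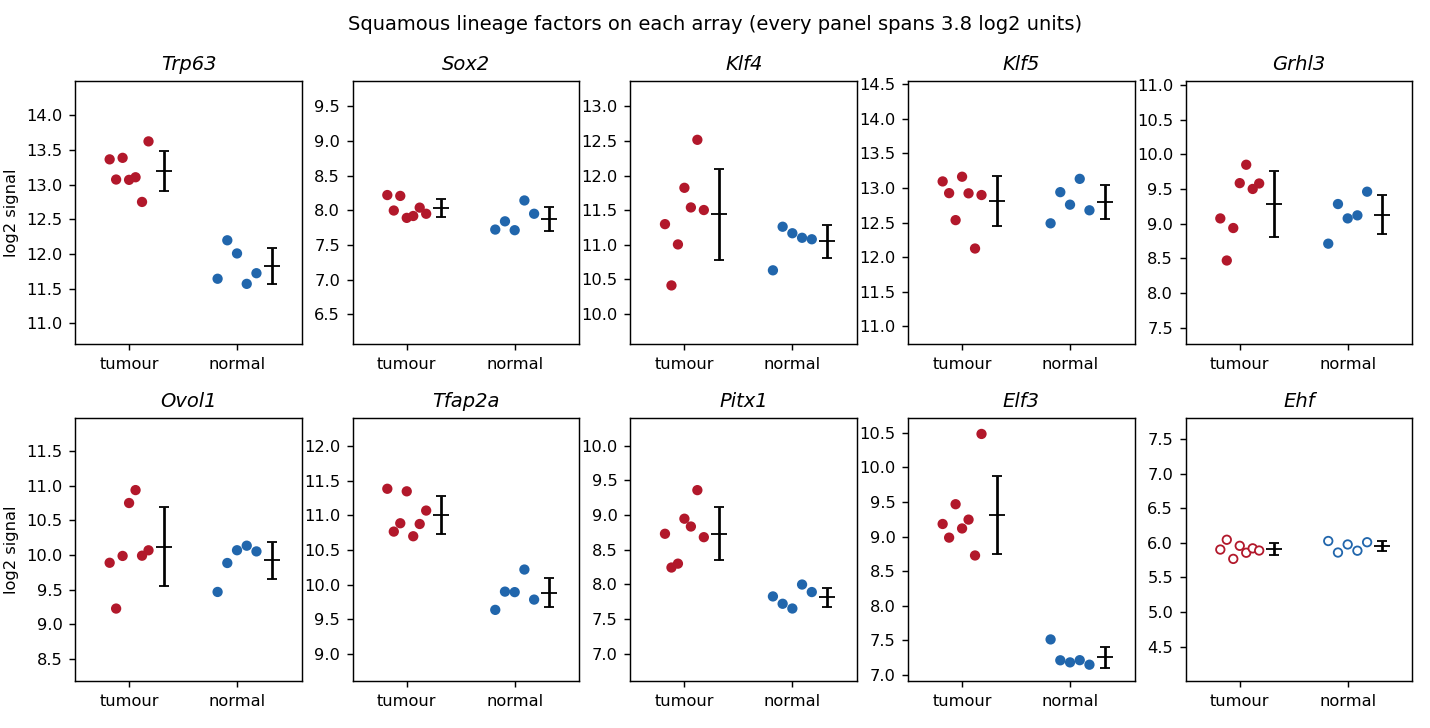
Log2 signal of each factor on every array, at the probe that represents the gene, with 7 tumours on the left and 5 normal tongues on the right of each panel. Filled points were above background and open points below it, and the bars give the mean and SD. Trp63, Tfap2a, Pitx1 and Elf3 are above all normal tongues in 7 of 7 tumours, and all Ehf points are open.

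Trp63 encodes p63, which keeps basal cells in their lineage. Its probe (ILMN_1216742) had a log2 signal of 12.75 at the lowest, 13.11 at the median and 13.63 at the highest over the 7 tumours, against 11.64, 12.20, 12.01, 11.57 and 11.72 in normal tongues 1 to 5. The weakest tumour, number 6, was thus above the strongest normal tongue. The mean was 13.20 ± 0.28 (SD, n = 7) in tumours and 11.83 ± 0.27 (SD, n = 5) in normal tongue, a log2 change of 1.37 (SE 0.15, adjusted p = 7.27e-06 by limma). One probe serves the gene here, so its isoforms could not be told apart.

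Elf3 encodes an ETS factor of differentiating epithelia and at its brightest probe had the largest change of the 9 factors. That probe (ILMN_2850233) gave 8.73 at the lowest, 9.18 at the median and 10.48 at the highest in tumours, against 7.52, 7.21, 7.18, 7.22 and 7.15 in normal tongues 1 to 5. Tumour 7 stood highest, and normal tongue 1 was the highest of its group. The mean was 9.32 ± 0.56 (SD, n = 7) in tumours and 7.26 ± 0.15 (SD, n = 5) in normal tongue, a log2 change of 2.06 (SE 0.24, adjusted p = 1.01e-05 by limma). The other Elf3 probes rose as well, by 1.33 (SE 0.20, ILMN_2692072) and 0.98 (SE 0.19, ILMN_2621659) on the log2 scale. The last of these was above background in 7 of 7 tumours and 0 of 5 normal tongues, and was at least 1.71-fold higher against the lowest signal called above background on each normal array. That probe passed the filter through the tumours alone, so its direction is not counted as support. The estimated change differed between the 2 other probes. Normal tongues were at only 6.55 to 6.70 at ILMN_2692072. Whether the true size differs between probes therefore cannot be decided.

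Tfap2a encodes AP-2 alpha, which acts in ectoderm and keratinocytes. Its brightest probe (ILMN_2764846) ran from 10.70 through a median of 10.88 to 11.38 in tumours, against 9.63, 9.90, 9.89, 10.22 and 9.78 in normal tongues 1 to 5. The log2 change was 1.12 (SE 0.14, adjusted p = 1.91e-05 by limma). Its other probes rose by 1.07 (SE 0.13, ILMN_2913031) and 0.64 (SE 0.13, ILMN_2726449). All 3 probes separated the groups without overlap.

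Pitx1 encodes a homeodomain factor of the oral ectoderm and hindlimb. Its probe (ILMN_2656380) ran from 8.24 through a median of 8.73 to 9.36 in tumours, against 7.83, 7.72, 7.65, 8.00 and 7.89 in normal tongues 1 to 5. Tumour 6, the lowest for Trp63, was the highest for Pitx1. The log2 change was 0.91 (SE 0.17, adjusted p = 4.70e-04 by limma).

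Upstream sequences were matched for 5 of the 10 factors in the RefSeq promoter table, as 6 windows, and the 3 windows of factors that rose are shown first because they let the letters around these starts be read beside the changes. Each is the 250 bases before the annotated start, 5′ to 3′. Capitals mark every match, on either strand, to short core motifs associated with the factors' own families: GCCNNNGGC for AP-2, CACCC for KLF, AACNGGTT for GRHL, GGAAG for ETS, ACAANG for SOX, TAATCC for PITX and CCGTTA for OVOL. No p63 motif was searched.
Elf3 upstream (GRCm38.p6 chr1:135258473-135258722, minus strand): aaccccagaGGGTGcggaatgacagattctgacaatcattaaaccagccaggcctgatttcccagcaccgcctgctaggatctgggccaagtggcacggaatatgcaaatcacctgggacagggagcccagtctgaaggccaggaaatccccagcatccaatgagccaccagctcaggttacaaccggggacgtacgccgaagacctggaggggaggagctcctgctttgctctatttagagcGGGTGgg
Tfap2a upstream, first window (GRCm38.p6 chr13:40733796-40734045, minus strand): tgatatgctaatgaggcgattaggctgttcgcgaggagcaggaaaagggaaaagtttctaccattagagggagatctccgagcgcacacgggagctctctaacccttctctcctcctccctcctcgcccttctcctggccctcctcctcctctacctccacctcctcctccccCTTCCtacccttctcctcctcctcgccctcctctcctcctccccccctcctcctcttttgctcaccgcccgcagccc
Tfap2a upstream, second window (GRCm38.p6 chr13:40734921-40735170, minus strand): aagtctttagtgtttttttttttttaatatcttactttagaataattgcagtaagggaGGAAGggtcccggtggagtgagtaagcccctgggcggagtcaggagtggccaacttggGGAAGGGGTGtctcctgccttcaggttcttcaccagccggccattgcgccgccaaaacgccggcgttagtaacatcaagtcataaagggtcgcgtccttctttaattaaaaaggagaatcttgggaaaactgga
The Elf3 window held 2 matches to the KLF letters, which 52.0% of all 32851 windows of this length hold. The Tfap2a windows held 1 and 2 matches to the ETS letters, found in 64.1% of all windows, and the second also 1 KLF match, whose letters adjoin one of the ETS matches. These are matches of letters and were not tested as binding sites.

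Klf4, which promotes late differentiation and the barrier, spread widely among tumours. Its brightest probe (ILMN_2999439) ran from 10.41 in tumour 2 through a median of 11.50 to 12.52 in tumour 6, against 10.63, 11.26, 11.17, 11.10 and 11.08 in normal tongues 1 to 5. Thus 5 tumours were above every normal tongue and 1 was below all of them. The SD was 0.66 in tumours and 0.24 in normal tongue. The log2 change of 0.39 (SE 0.28, 95% interval −0.21 to 1.00, adjusted p = 0.253 by limma) was not called, and the other probes gave 0.32 and 0.21. Without tumour 2 the change was 0.57 and passed the test (adjusted p = 0.0483 by limma), while over all alternatives the adjusted p was 0.0483 to 0.846.

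Grhl3 and Ovol1, which act in barrier formation and in exit from the cell cycle, overlapped between groups. Grhl3 (ILMN_2971031) ran from 8.47 through a median of 9.50 to 9.85 in tumours, against 8.71, 9.28, 9.08, 9.12 and 9.46 in normal tongues 1 to 5. Its log2 change was 0.16 (SE 0.22, 95% interval −0.32 to 0.63, adjusted p = 0.579 by limma). Ovol1 (ILMN_2617858) ran from 9.23 through a median of 9.99 to 10.94 in tumours, against 9.47, 9.88, 10.07, 10.13 and 10.05 in normal tongues 1 to 5. Its log2 change was 0.20 (SE 0.25, 95% interval −0.34 to 0.74, adjusted p = 0.531 by limma). Both genes were lowest in tumour 2 and highest in tumour 5, and within normal tongue both were lowest in piece 1.

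Klf5, a factor of proliferating epithelium, had close means in both groups. Its probe (ILMN_1253387) ran from 12.13 in tumour 6 through a median of 12.92 to 13.16 in tumour 4, against 12.49, 12.94, 12.76, 13.13 and 12.68 in normal tongues 1 to 5. The means were 12.81 ± 0.36 (SD, n = 7) in tumours and 12.80 ± 0.25 (SD, n = 5) in normal tongue. The 95% interval of its log2 change was −0.36 to 0.38 (adjusted p = 0.967 by limma), so changes in either direction within those limits cannot be set aside.

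Sox2 also overlapped between groups. Its brighter probe (ILMN_2656102) ran from 7.89 through a median of 8.00 to 8.22 in tumours, against 7.72, 7.84, 7.71, 8.14 and 7.95 in normal tongues 1 to 5. The log2 change was 0.16 (SE 0.09, 95% interval −0.04 to 0.36, adjusted p = 0.162 by limma), and that of the other probe was 0.20. Its call depended on the treatment of the data. It was called higher as the mean of its probes (0.18, adjusted p = 0.0495 by limma) or without normal tongue 4 (0.23, adjusted p = 0.0467 by limma), and lower when arrays were centred on reference genes (−0.30, adjusted p = 0.0204 by limma). Over all alternatives its adjusted p was 0.0204 to 0.830. Ehf (ILMN_2597515) had 5.77 to 6.04 in tumours and 5.86 to 6.03 in normal tongue, below background on every array, so no fold is given.

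The windows of factors that did not pass the test are shown for Klf4 and Grhl3, prepared and marked in the same way.
Klf4 upstream (GRCm38.p6 chr4:55532476-55532725, minus strand): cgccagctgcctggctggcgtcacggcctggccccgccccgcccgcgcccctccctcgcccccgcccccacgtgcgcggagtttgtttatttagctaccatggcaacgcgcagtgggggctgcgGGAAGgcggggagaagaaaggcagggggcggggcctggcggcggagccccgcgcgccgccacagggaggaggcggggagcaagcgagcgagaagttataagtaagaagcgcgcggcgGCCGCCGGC
Grhl3 upstream (GRCm38.p6 chr4:135573633-135573882, minus strand): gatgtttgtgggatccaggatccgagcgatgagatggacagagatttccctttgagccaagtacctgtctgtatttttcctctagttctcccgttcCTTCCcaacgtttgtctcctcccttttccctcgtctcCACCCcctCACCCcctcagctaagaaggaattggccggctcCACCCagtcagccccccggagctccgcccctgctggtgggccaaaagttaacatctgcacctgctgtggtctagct
The Klf4 window held 1 match to the AP-2 letters, which 13.7% of all windows hold, directly before the start, and 1 ETS match. The Grhl3 window held 3 KLF matches and 1 ETS match. No GRHL, PITX or OVOL letters occurred in any of the 6 windows, and 1.79% to 6.25% of all windows hold them.

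**Figure D2:**
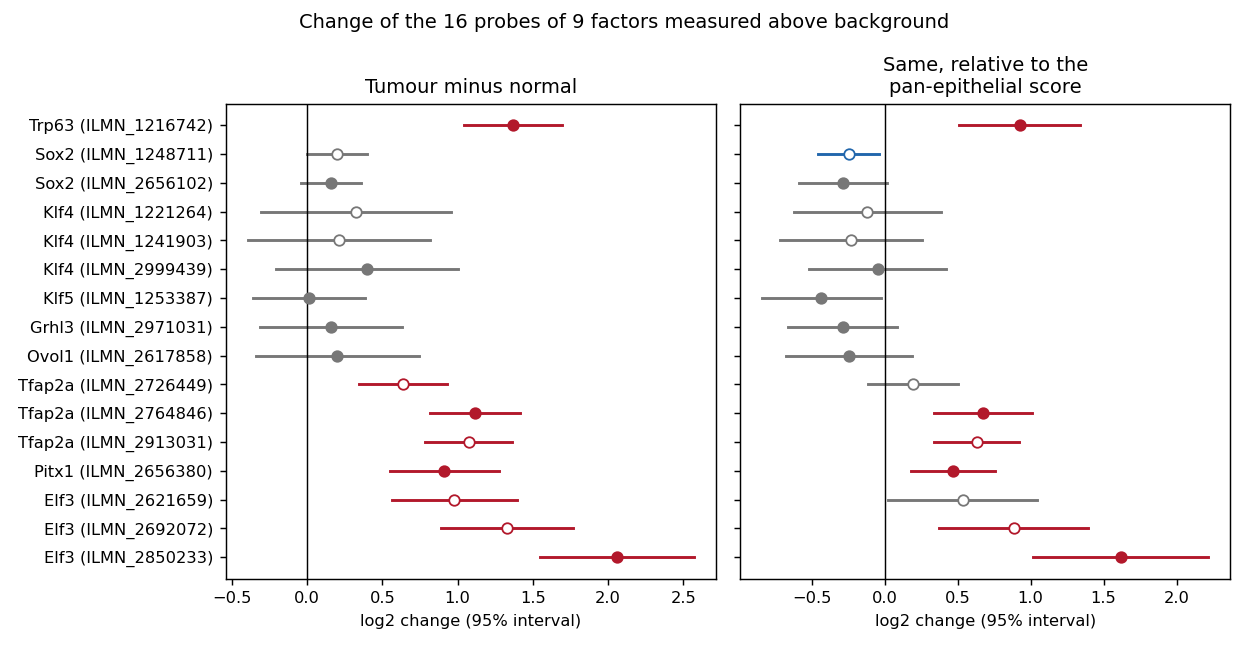
Log2 change in tumours relative to normal tongue for the 16 probes of 9 factors above background, on the left as measured and on the right relative to the pan-epithelial score of the same array. Bars are 95% intervals, filled points the probe that represents the gene, red a rise and blue a fall past the threshold of 0.05 on limma's adjusted p, and grey neither. All 8 probes of Trp63, Tfap2a, Pitx1 and Elf3 are red on the left, and 6 of them on the right. Among the 8, the Elf3 probe ILMN_2621659 passed the filter through the tumours alone, so its direction is not counted as support.

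Whether the changes themselves differed between factors was tested on the log2 ratio of each pair on each array, for all 36 pairs, with a two-sided exact permutation test over 792 arrangements of the arrays and Benjamini-Hochberg adjustment over the pairs. This test was chosen after the values above were seen. The change differed in 21 of 36 pairs. Each factor stood at its brightest probe, and probes of the same gene also differed in their change, as for Tfap2a (1.12, 1.07 and 0.64). Differences between factors and between probes were thus not separated, apart from the other Elf3 and Klf4 probes tried below. At its brightest probe, Elf3 changed more than each of the other factors in 8 of 8 pairs (adjusted p = 0.00649 to 0.0202, exact permutation). This order was seen at that probe only, and the other Elf3 probes had low signal in normal tongue, below background at ILMN_2621659. With ILMN_2692072 standing for Elf3, 4 of 8 pairs differed, with ILMN_2621659 3 of 8, and with the mean over its probes 4 of 8, and none of these differed from Trp63, Tfap2a or Pitx1 past the threshold. With the mean over probes the difference of Elf3 from Trp63 was 0.08 on the log2 scale (adjusted p = 0.713, exact permutation). Trp63 changed more than Klf5 by 1.36 on the log2 scale, than Grhl3 by 1.22, than Sox2 by 1.21 and than Ovol1 by 1.17 (adjusted p = 0.00649 to 0.0202, exact permutation). Its difference from Klf4, 0.98, missed the threshold (adjusted p = 0.0579, exact permutation), as did that of Tfap2a from Klf4 (adjusted p = 0.0711, exact permutation), and both passed at either of the other Klf4 probes (adjusted p = 0.0186 to 0.0325, exact permutation). The difference of Pitx1 from Klf4 passed (adjusted p = 0.0386, exact permutation) but missed at the Klf4 probe ILMN_1221264 (adjusted p = 0.0553, exact permutation). Among the 5 factors that were not called, 0 of 10 pairs differed. Trp63, Tfap2a and Pitx1 did not differ from one another past the threshold.

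Tongue is muscle covered by epithelium, and the tissue makeup of the pieces differed between groups. The skeletal muscle score, the mean log2 signal of 19 measured marker genes, was 8.18 to 11.88 in tumours and 12.82 to 13.28 in normal tongue, and 18 of the 19 genes were lower. The pan-epithelial score, over 15 measured genes that include those of epithelial junctions, splicing and membrane proteases, was 9.14 to 9.57 in tumours and 8.77 to 9.01 in normal tongue. Of these 15, 7 were higher, and 0 were lower. The higher score depended on scaling. The difference of the group means was 0.44, and −0.012 with arrays centred on reference genes, most of which were themselves called higher. The fibroblast score was 8.56 to 9.72 in tumours and 9.50 to 10.03 in normal tongue, with 1 of 10 measured genes higher and 5 lower. Endothelium was at 8.18 to 8.90 in tumours and 9.35 to 9.47 in normal tongue, with 10 of 11 genes lower. The endothelial marker Kdr and the fibroblast marker Postn were not above background. Leukocyte markers were at 9.68 to 11.22 in tumours and 8.11 to 8.67 in normal tongue, with 8 of 11 higher, while Ptprc, Cd79a, Itgam and Itgb2 were not above background. Their part in the factors' changes was not tested, beyond the comparison with other epithelial genes that follows.

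The factors were therefore also set against the other epithelial genes of the same array. With the pan-epithelial score subtracted, the same 4 factors were called higher, Elf3 by 1.62 (SE 0.28), Trp63 by 0.93 (SE 0.19), Tfap2a by 0.68 (SE 0.16) and Pitx1 by 0.47 (SE 0.13) on the log2 scale, with adjusted p = 2.27e-04 to 0.00724 by limma. Relative to this score 9.04% of all genes were higher and 54.8% lower. Trp63 lay 3.21 to 4.46 above the score in tumours and 2.68 to 3.18 above it in normal tongue, and Elf3 also kept its groups apart, at −0.81 to 1.31 in tumours and −1.80 to −1.25 in normal tongue. Tfap2a and Pitx1 overlapped on this scale, though their differences passed the test. The dimmest Tfap2a probe (0.20, adjusted p = 0.252 by limma) and the dimmest Elf3 probe (0.54, adjusted p = 0.0628 by limma) did not pass.

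On the same scale the other 5 factors had negative values, as most genes did, with a median of −0.38 over all genes. Klf5 was at −0.43 (SE 0.19, adjusted p = 0.0583 by limma), with 2.59 to 3.77 above the score in tumours and 3.72 to 4.24 in normal tongue. It passed the threshold in 10 of 25 alternatives, with adjusted p = 0.0136 to 0.150 by limma or rank-sum test over all of them. Grhl3 was at −0.29, Sox2 at −0.28, Ovol1 at −0.24 and Klf4 at −0.05, none of them called and all above the median of all genes. The second Sox2 probe was called (−0.25, adjusted p = 0.0396 by limma). Sox2 passed as lower in 2 of 25 alternatives, Grhl3 in 2 and Ovol1 in 1. For Klf4 the sign turned without tumour 2 (0.092) and without both normal tongue 1 and tumour 2 (0.019).

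**Figure D3:**
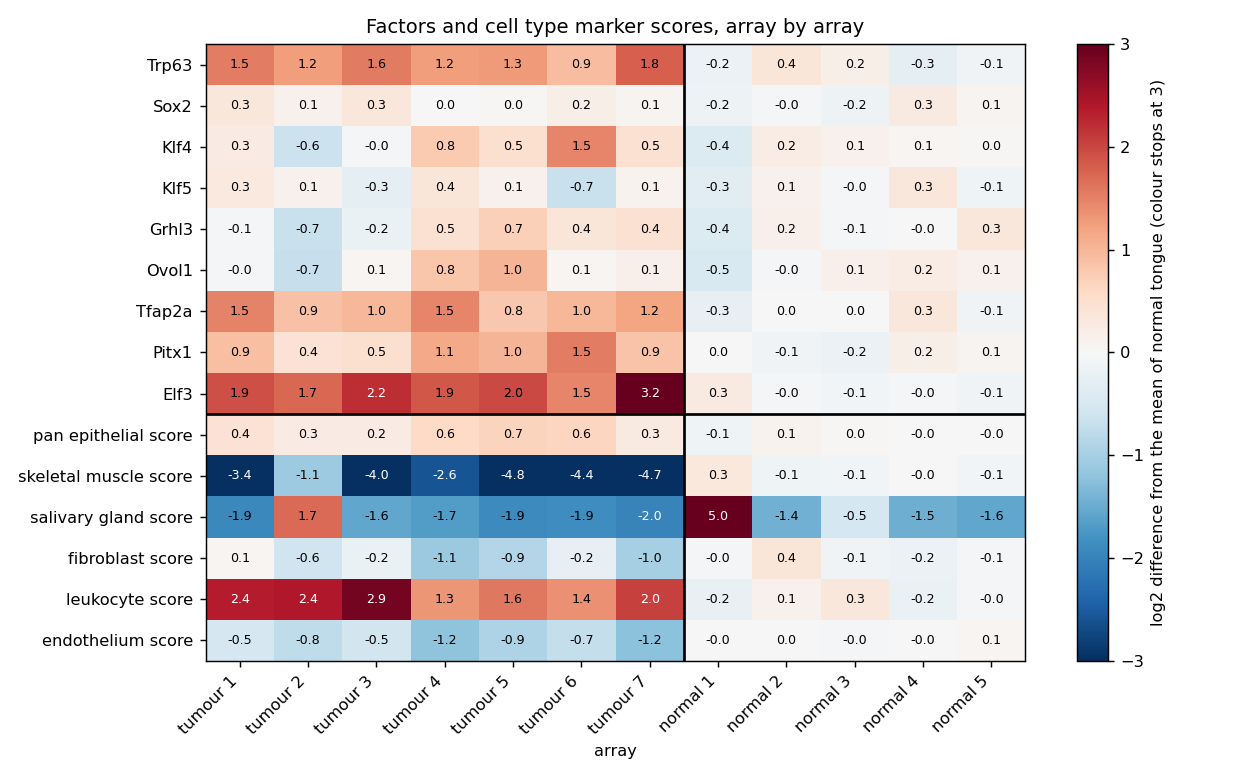
Log2 difference of each of the 9 measured factors (upper rows) and of 6 cell type marker scores (lower rows) from the mean of the 5 normal tongues, for 7 tumours on the left and 5 normal tongues on the right. Tumour 2, with the highest muscle score of the tumours and a salivary gland score above the others, is below the normal mean for Klf4, Grhl3 and Ovol1.

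Tumour 2 and normal tongue 1, the pieces with salivary gland RNA, gave the lowest Klf4, Grhl3 and Ovol1 values of their groups. Both pieces also had the highest skeletal muscle score of their group, 11.88 in tumour 2 and 13.28 in normal tongue 1. Normal tongue 1 had the lowest pan-epithelial score of its group, 8.77, while tumour 2, at 9.15, was not the lowest tumour. Gland, muscle and epithelial RNA cannot be told apart here, and their part in the low values was not tested. Without both pieces the rises were 1.34 for Trp63, 1.10 for Tfap2a, 1.00 for Pitx1 and 2.19 for Elf3, and Klf4 (0.46), Grhl3 (0.19) and Ovol1 (0.24) again did not pass.

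Variation among tumours was examined for 4 pairs of factors in the 7 tumours, with two-sided exact permutation tests adjusted over the 4 pairs. Grhl3 and Ovol1 went together, with Pearson r = 0.87 (exact permutation p = 0.00575, adjusted 0.0230) and Spearman rho = 0.96 (exact permutation p = 0.00278, adjusted 0.0111). Without tumours 2 and 3, the farthest from the median of Grhl3, r was 0.77 over 5 tumours. The call was lost when tumour 1, 2, 4 or 5 was left out, with r = 0.74 to 0.92 over the 7 leave-outs. The pan-epithelial score also varied over these tumours, from 9.14 to 9.57. Its part in this correlation was not tested, so shared tissue makeup and a tie between the 2 factors cannot be told apart. Klf4 and Klf5 had r = −0.44 (exact permutation p = 0.316) and rho = −0.14 (exact permutation p = 0.783), and r was 0.79 without tumours 2 and 6. Trp63 and Klf4 had r = −0.44 (exact permutation p = 0.313) and rho = −0.54 (exact permutation p = 0.236), and r was −0.10 without tumours 6 and 7. Trp63 and Sox2 had r = 0.26 (exact permutation p = 0.546) and rho = 0.25 (exact permutation p = 0.595), and r was 0.96 without tumours 6 and 7. For these last 3 pairs the adjusted values were 0.421 to 0.546 for r and 0.471 to 0.783 for rho, so none passed. Tumour 6 had the lowest Klf5 and Trp63 and the highest Klf4 at its brightest probe, and without it r was 0.43 for Klf4 and Klf5 and 0.12 for Trp63 and Klf4. At ILMN_1221264 tumour 4 was higher in Klf4, with 10.66 against 10.61 in tumour 6, and at ILMN_1241903 tumours 6 and 4 had 11.67 and 11.55. With those probes r was −0.11 and −0.19 for Klf4 and Klf5 and −0.13 and −0.15 for Trp63 and Klf4 (unadjusted exact permutation p = 0.662 to 0.804). The pair of Elf3 and Ehf could not be examined, as Ehf was below background.

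**Figure D4:**
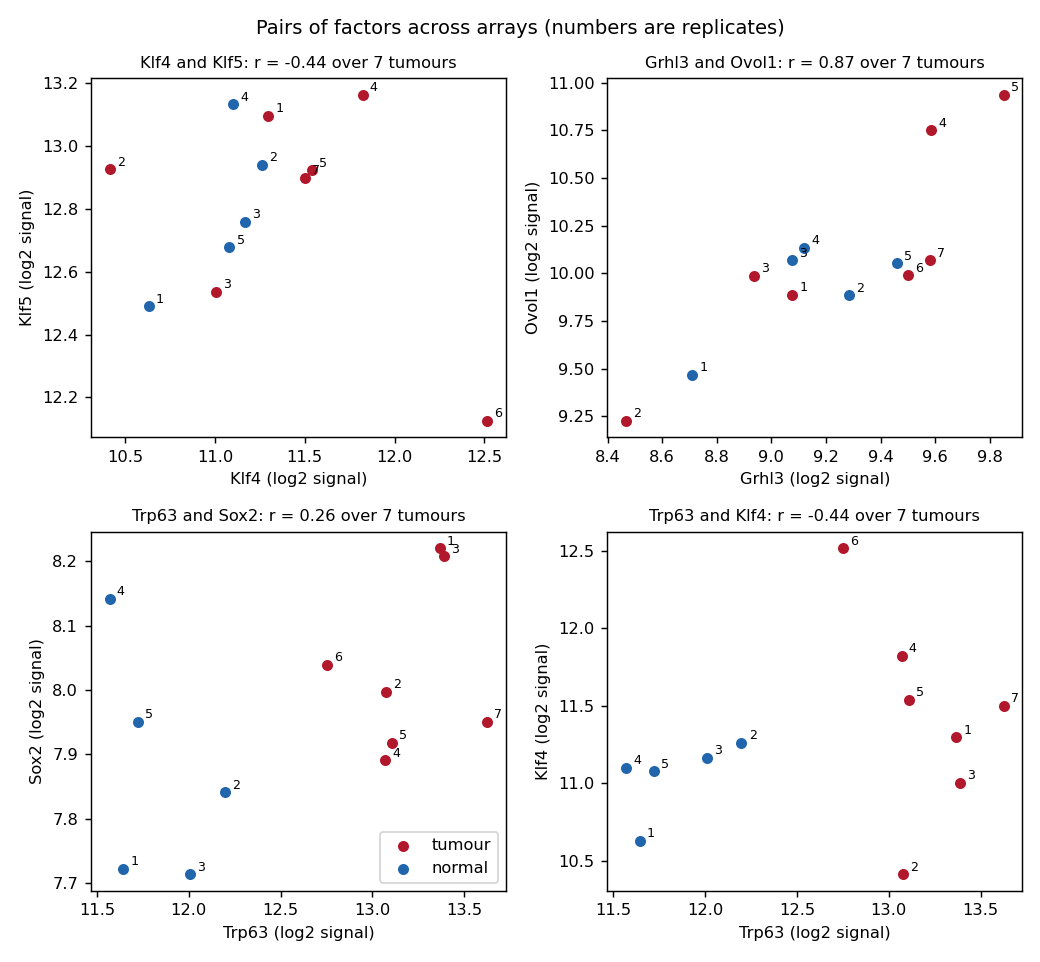
Log2 signal of 4 pairs of factors on every array, with tumours in red, normal tongues in blue and the replicate number beside each point. Grhl3 and Ovol1 rise together over the 7 tumours (r = 0.87), and tumour 6 lies alone at the lowest Klf5 and, for the Klf4 probe drawn, at the highest Klf4.

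The genes whose arrays deviated from their group means most like each factor's are given as a description over the 12 arrays, which share tissue makeup. They were picked as the highest r over all genes tested, so high values come in part from the choice, and no chance level was computed. For Trp63 these were Hyal1, a hyaluronidase (r = 0.91), Zfp94 (0.91) and Ccdc82 (0.89). For Elf3 they were Il23a, a subunit of interleukin 23 (0.97), the neutrophil chemokine Cxcl2 (0.95) and Crim1 (0.94). Tumour 7 stood far from the other tumours for Elf3, at 10.48 against 9.47 for the nearest, and its part in these r values was not tested. Klf4 was closest to Cldnd1 (0.99), the kinase gene Map3k8 (0.98) and Haus6 (0.97), and Pitx1 to the unconventional myosin Myo1d (0.95), Sprr2a1 of the cornified envelope (0.94) and Nob1 (0.94). Grhl3 was closest to the G protein subunit Gna15 (0.99), the sterol enzyme Cyp51 (0.96) and Scnn1a, of the epithelial sodium channel (0.96). Ovol1 was closest to Helq (0.95), S1pr5 (0.93) and Casp12 (0.93), Klf5 to Rpl24 (0.94), Dtx2 (0.92) and Bcl11b (0.92), Tfap2a to Hipk4 (0.87), Ercc1 (0.85) and Prkcz (0.84), and Sox2 to Fam169b (0.89), Apbb1ip (0.84) and Dpm2 (0.82). Between the factors themselves, Klf4 and Pitx1 were closest (0.87), followed by Grhl3 and Ovol1 (0.85), and Trp63 and Pitx1 were the most opposed (−0.56).

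Centring the arrays on reference genes lowered every log2 change by about 0.45, which turned the 5 factors that were not called to negative values, and likewise any gene named below whose change was positive and smaller than this, such as Tfap2e and Elf1. The reference genes measured were Actb, Gapdh, Hprt, Tbp, Rplp0, Ywhaz, Gusb and Pgk1. Of these 8, 6 were themselves called higher and 1 lower, from 0.91 for Actb to −0.24 for Gapdh, so they were not stable between the groups. The values that follow are those without this centring.

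The families the factors belong to changed in both directions. Of 32 measured paralogs 10 rose, 6 fell and 16 were not called, with a median log2 change of 0.07, the value over all genes. These shares, 31.2% higher and 18.8% lower, are near those over all genes, 32.5% and 23.6%. Among the SOX genes, Sox7 rose by 2.15. The progenitor factor Sox9 had 7.80 to 8.89 in tumours and 6.02 to 7.85 in normal tongue, where 1 of 5 pieces was above background, so the size of its rise was not measured well. Sox15 rose by 1.18, Sox17 fell by 1.09 on the log2 scale, and Sox18 (−0.08) was not called. Endothelial markers fell in the same arrays, and their part in the values of Sox7, Sox17 and Sox18 was not tested. Among the KLF genes, Klf9 fell by 2.11 and Klf2, a factor of endothelium and lymphocytes, by 1.82, and Klf7 rose by 1.04. Klf15, a metabolic factor of muscle, fell by 0.54. Tfap2c, the paralog most active with Tfap2a in skin, rose by 1.14, as its 2 other probes also did, and Tfap2e by 0.22. Grhl2, a regulator of epithelial junctions, rose by 0.75. Among the ETS genes listed with Elf3, Elf1 rose by 0.42 and Elf5, a factor of glandular and keratinocyte lineages, fell by 0.71, which its other probe did not show.

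Other factors of epithelial lineages also went both ways, with 8 of 24 measured genes higher, 7 lower and a median of −0.01. The shares, 33.3% higher and 29.2% lower, are again near those over all genes. The largest rises were in Etv4 (1.91), an ETS factor downstream of FGF signalling, and Vdr (1.39), the vitamin D receptor. Dlx3 (−1.18), a homeodomain factor of differentiating skin, Rora (−1.02), the Notch target Hey1 (−0.97) and Barx1 (−0.95) fell. Foxe1 (0.08) and Foxn1 (−0.09) were nearest to no change in the mean. Foxe1 was above every normal tongue in 5 tumours and below all of them in 2.

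Basal genes associated with p63 were mostly higher. Of 21 measured, 14 rose, 4 fell and 3 were not called, with a median of 0.85, against 32.5% higher and 23.6% lower over all genes. The list was drawn up with earlier results of these data known, so this count is not independent support for the rise of Trp63. The desmosomal cadherin Dsg3 (2.69), P-cadherin Cdh3 (2.62), the laminin chain Lamb3 (2.17) and Igfbp3 (2.12) rose most. The chromatin organiser Satb1 (−2.30) and the keratin Krt15 (−2.25) fell. Cldn1 (−0.05) and Bcl9l (0.17) were nearest to no change and were not called. Relative to the pan-epithelial score 11 of the 21 were higher and 6 lower, against 9.04% and 54.8% of all genes.

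Genes of terminal differentiation, which KLF4, GRHL3 and OVOL1 act on, changed in both directions. Of 26 measured, 8 rose, 5 fell and 13 were not called, with a median of 0.23. The shares, 30.8% higher and 19.2% lower, are near those over all genes. The cysteine protease inhibitor Cstb (1.76) and the envelope precursor Sprr1a (1.65) rose most. The keratins Krt76 (−4.77), Krt4 (−1.81), Krt10 (−1.71) and Krt78 (−1.35) of the suprabasal layers fell. The keratins Krt13 (−0.09) and Krt1 (0.33) of the same list were not called. Aloxe3 (−0.03) and Tgm3 (−0.09) were nearest to no change in the mean. Tgm3 was above every normal tongue in 2 tumours and below all of them in 4. Relative to the pan-epithelial score 5 of the 26 were higher and 11 lower, against 9.04% and 54.8% of all genes.

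**Figure D5:**
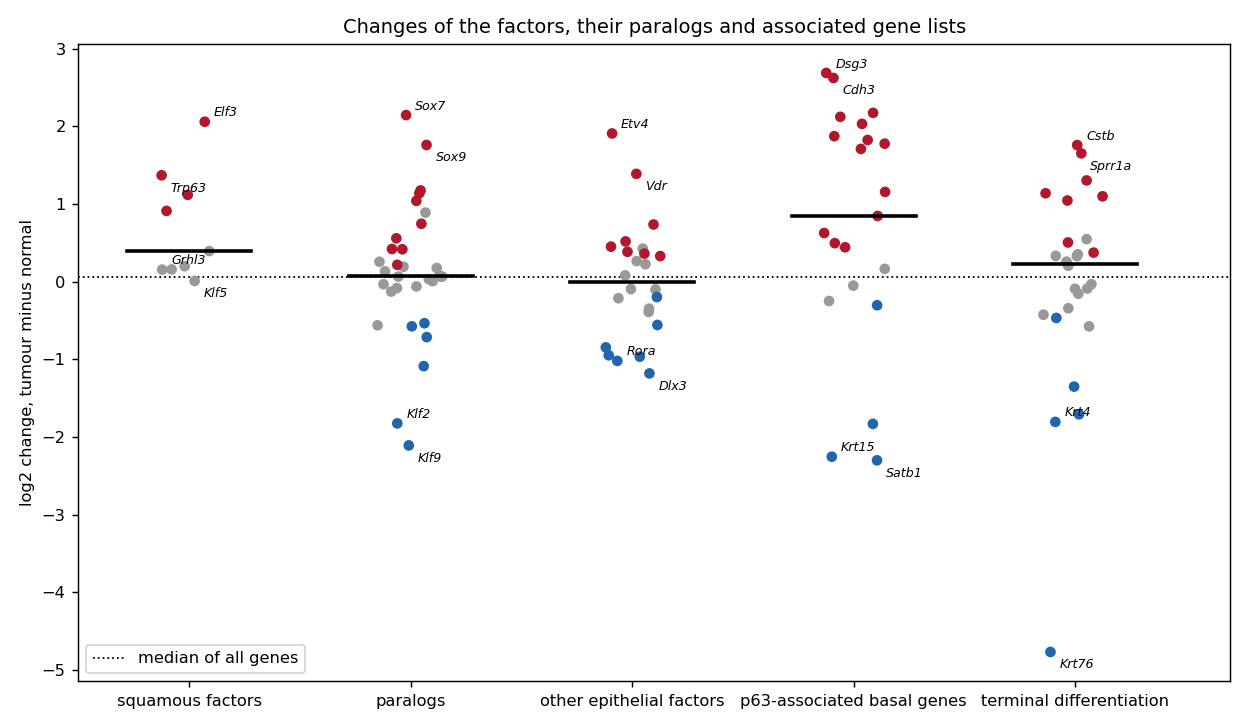
Log2 change in tumours relative to normal tongue for each measured gene of 5 lists, with red for a rise and blue for a fall past the threshold of 0.05 on limma's adjusted p and grey for neither. Thick bars are medians of the lists (0.39, 0.07, −0.01, 0.85 and 0.23 from left to right) and the dotted line is the median of all genes, 0.07.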

How the data were processed

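RNA of 7 tongue tumours and 5 normal tongues was measured, 1 array per piece. The values used are those the authors deposited on a log2 scale for 25697 probes, where base 2 was inferred from their range and each array has the same median, 6.56. Per the submitters' processing notes, BeadStudio and Partek 6.6 were used, for steps not given there. Another table of 24 columns was not used, because its column names match no sample label, so its detection p-values and slide could not be used either.

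From those deposited log2 values, linear signals were computed, background-corrected by normexp (offset 50), quantile normalised and logged again (base 2) in limma 3.58.1 (R 4.3.3). Background on each array was the mode of the deposited values plus 1.64 SD of the side below it, and 15702 probes above it on at least 5 arrays were kept (14745 to 15388 per array). Genes were named from the array's annotation, with symbols updated through the RefSeq table of GRCm38.p6 (23978 probes with 1 symbol, 0 with several and 1719 with none), and a gene was represented by its brightest kept probe. Tests were lmFit and eBayes, two-sided, with Benjamini-Hochberg adjustment over all kept probes. On simulated data, 98% of probes changed by 1 on the log2 scale in tumours against normal tongue were recovered among 14862 tested. The simulation gave both groups the spread of the normal tongues and changed only probes of middle signal. Recovery was therefore not measured for dim probes or for genes that vary more among tumours, such as Klf4. The number of arrays limits the precision.

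Members and lists were chosen with earlier results of these data known. Genes named from a list are the called ones with the largest changes (up to 4 per paralog family, 6 per other list) and the 2 nearest to no change. Sox18, Krt13 and Krt1 are named besides. For each member the 3 genes most like it are named. Alternatives changed the background correction, scaling, filter, probes, weights, test, replicate block and the arrays used. Replicate numbers are shared by the groups but did not pair arrays: same-numbered arrays correlated at −0.37 to 0.10 in their deviations from the group means. Python 3.11.15 with matplotlib 3.10.9 drew the figures.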

Additional observations from a re-analysis of the deposited data

Results flagged for a closer look

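Of 32 sets of values tested, each the tumours or the normal tongues at 1 probe, 5 held an array far from the others, where chance gives about 1 in 20. Normal tongue 1 was the lowest of its group at all 3 Klf4 probes and far from it at 2, with a log2 signal of 10.19 against 10.91 for the nearest at ILMN_1241903, and 10.63 against 11.08 at ILMN_2999439. It was the highest of its group for Elf3 at ILMN_2850233, with 7.52 against 7.22. This piece had the highest salivary gland score, 13.49, and the highest skeletal muscle score, 13.28. The part of gland or muscle RNA in these values was not tested. Tumour 7 was the highest for Elf3 at ILMN_2621659, with 8.21 against 7.36, and at ILMN_2850233, with 10.48 against 9.47. Without tumour 7 the Elf3 change was 1.87 on the log2 scale, and it was still called.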

How the results depend on the processing

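Trp63, Tfap2a, Pitx1 and Elf3 were called higher under all 25 alternatives, as measured (smallest changes 0.92, 0.66, 0.46 and 1.45) and relative to the pan-epithelial score. With the replicate number as a block, which leaves out tumours 6 and 7, the changes were 1.37, 1.13, 0.79 and 1.94, and the block changed no call as measured. Called higher were 4 to 5 members and called lower 0 to 0 over the leave-outs. Members lower relative to the pan-epithelial score numbered 1 in place of 0 under the deposited values, offset 16, centring on the 75th percentile, cyclic loess, the mean over probes (Sox2), the replicate block (Grhl3, −0.39), the exact rank-sum test, and without normal 1 and tumour 2, 2 with no signal filter (Klf5 and Ehf, whose probe was below background on every array) or array weights (Grhl3 and Ovol1), and 0 to 1 over the leave-outs. Centring on reference genes, which moved the median change of all genes by −0.45, to −0.39, gave 1 member lower (Sox2), 1112 genes higher and 6510 lower (14.6% of calls higher, against 58.0%, and 46.3% under cyclic loess), 6 and 19 paralogs, 2 and 12 other epithelial factors, and 5 and 10 terminal differentiation genes; it turned Sox2 to −0.30, Klf4 to −0.061, Klf5 to −0.45, Grhl3 to −0.30 and Ovol1 to −0.26. Less the median of all genes, those changes were 0.09, 0.33, −0.06, 0.09 and 0.13 there. Cyclic loess gave 5 other epithelial factors higher and turned Klf5 to −0.28 and Grhl3 to −0.0013, and the rank-sum test gave 4 terminal differentiation genes higher. Klf5 turned to −0.023 with the deposited values, −0.077 with centring on the 75th percentile, −0.086 without normal 1 and tumour 2, and −0.067 to 0.12 over the leave-outs. Relative to the score, Klf4 turned to 0.019 without normal 1 and tumour 2 and ran from −0.19 to 0.092 over the leave-outs, and 11624 genes were lower with no signal filter, which adds probes below background. Over the leave-outs r was −0.63 to 0.43 for Klf4 and Klf5, 0.74 to 0.92 for Grhl3 and Ovol1, and −0.80 to 0.12 for Trp63 and Klf4, and 16 to 23 of the 36 pairs differed in change. The cause of these shifts was not tested. The slide was not used as a block, because no header names one for the arrays used.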
